A study of Homo sapiens with 4 samples.

Results

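Baseline translational efficiency was examined in wild-type SW480 cells, a human colorectal cancer line, as the ratio of ribosome footprints to RNA for each mRNA. Members were all genes with at least 50 reads in the wild-type RNA library, without regard to their footprints. They were 9577 of the 19192 genes counted (49.9%). The study profiled cultured SW480 cells that were either wild type or labelled IMP1-/- (IMP1, gene symbol IGF2BP1, is an RNA-binding protein). Each genotype gave 1 ribosome-protected fragment library and 1 matched RNA library, and each library came from 3 pooled culture plates. No treatment, passage or clone is named for the groups used here, and the label of the wild-type RNA library gives the line as SW840 in 1 field and as SW480 in another, a conflict that was not resolved. With 1 library of each kind there was no replicate, so no p-value is given. Every interval covers counting error in 1 pair of libraries only, and PCR copies of a molecule are not independent counts.

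A ribosome that is translating an mRNA shields a short stretch of it from nuclease, and sequencing of these stretches counts ribosomes on each mRNA. The count of footprints depends on how much of the mRNA is present and on how many ribosomes each copy carries. Dividing footprints by RNA for the same gene gives the translational efficiency, in which gene length cancels if both libraries were counted over the same bases. The ratio reflects the density of ribosomes, and cannot separate frequent initiation from slow elongation.

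The libraries held 3782874 footprint reads and 5551479 RNA reads in wild type, and 3778316 and 4932388 in the cells labelled IMP1-/-. The gene that the genotype names, IGF2BP1, had 285 footprint and 598 RNA reads in wild type and 149 and 571 reads in the libraries labelled IMP1-/-, so its RNA count did not separate the genotypes. Of the epithelial markers, EPCAM (1081 RNA reads), KRT8 (16173), KRT18 (26170) and KRT19 (2285) were abundant, while CDX1, CDH17, GPA33 and LGALS4 had 0 to 3 reads. The measured fibroblast and leukocyte markers had at most 26 RNA reads each. Of the endothelial markers, PECAM1, CDH5, VWF and TEK had 0 to 34 RNA reads, and KDR, the VEGF receptor 2, had 1969 RNA reads with 6 footprints.

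Footprints followed RNA across genes, with Spearman's rho of 0.762 over the 9577 members (a description across genes, which share the same libraries). The median member had 226 RNA reads and 144 footprints, and the median ratio of read shares (the gene's reads over the library total) was 0.979. All values below are log2 ratios relative to that median, called relative efficiency, so 0 is the typical mRNA and 1 is a density 2-fold higher. They had an SD of 1.24 across members. The 5th percentile lay at −2.25 and the 95th at 1.41, so the values reached further down than up. An mRNA was called high or low when it lay at least 2-fold from the median and its 95% interval excluded the median. By this rule 1337 members were high (14.0%) and 1967 were low (20.5%), while 6273 (65.5%) were neither. When the library totals were taken without the mitochondrial and MTRNR2L genes and the ratio was referred to the unshifted level, the median moved by −0.21, with 824 high (8.60%) and 2401 low (25.1%). The half-width of the interval had a median of 0.31 and was 0.64 for a typical member at 50 RNA reads. The threshold marks no step in the data: the 47 genes at exactly 50 RNA reads had a median of 32 footprints (range 0 to 141), and the 44 genes at 49 reads, just outside, a median of 38 (range 0 to 128).

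**Figure D1:**
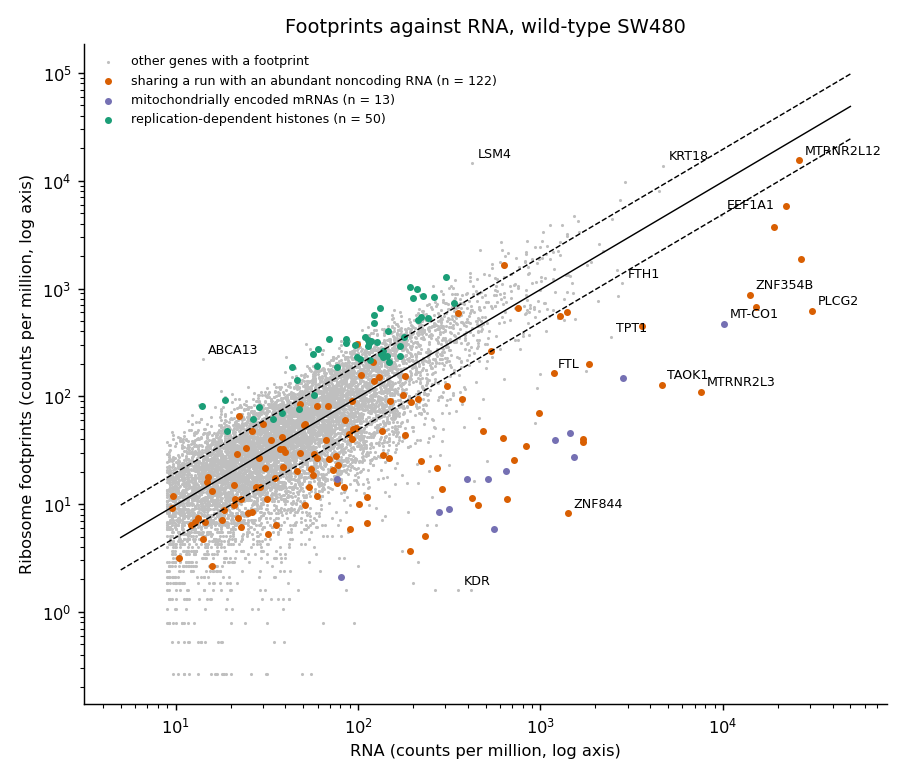
Footprints against RNA in wild-type SW480, both as CPM (reads scaled to the library total) on log axes, 1 point per member with at least 1 footprint (the 28 members without any are not drawn). The solid line is the median ratio and the dashed lines are 2-fold above and below it; 38 of the 50 histones were called high and the 13 mitochondrially encoded mRNAs all sit below the lower dashed line.

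The mRNA with the most footprints for its RNA was LSM4, an Sm-like protein of the U6 snRNP, with 55150 footprints on 2341 RNA reads and a relative efficiency of 5.14 (95% interval 5.08 to 5.20). LSM4 lies at chr19:18306230-18323274 on the minus strand (GRCh38) and took 1.46% of all wild-type footprint reads with 0.0422% of RNA reads. It was also high in the other genotype, at 4.01, with 22962 footprints on 1909 RNA reads. ABCA13, a large membrane transporter, followed with 831 footprints on 78 RNA reads (3.99, and 1.97 in the cells labelled IMP1-/-). Of the 15 highest members, 6 were histones. The others included PRDX1, a peroxide-reducing enzyme, with 8529 footprints on 2581 RNA reads (2.31), S100A6, a calcium-binding protein, with 10185 on 3355 (2.19), GNG5, a G-protein gamma subunit, with 1160 on 289 (2.59), UBE2T, a ubiquitin-conjugating enzyme, with 1045 on 303 (2.37), and the secreted proteins APOE (317 on 75, 2.66) and SAA1 (874 on 223, 2.55). PRDX1 and S100A6 kept almost the same place in the other genotype, at 2.32 and 2.45.

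At the other end, several mRNAs had many RNA reads and almost no footprints. PHACTR1, a regulator of actin and protein phosphatase, had 6 footprints on 2320 RNA reads (−7.90), KDR had 6 on 1969 (−7.66), and RELN, a secreted glycoprotein of the developing brain, had 6 on 1464 (−7.23). In the cells labelled IMP1-/- the same genes had 0 footprints on 3831 RNA reads, 4 on 843 and 4 on 1281. The zinc finger gene ZNF844 had 31 footprints on 7856 RNA reads (−7.38), and CASC10, XKR5 and the sodium-calcium exchanger SLC8A2 had 7 on 1111, 11 on 1177 and 3 on 525. There were 28 members with no footprint at all, on 50 to 330 RNA reads. The most abundant of these was ADCY1, an adenylyl cyclase, with 330 RNA reads, which at a floor of 3 footprints places it at least 73.4-fold lower than the median.

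Several of the most abundant RNAs with low ratios shared a stretch of sequence with a noncoding RNA that cells make in large amounts. A search of the deposited transcripts for sense-strand runs of at least 30 bases identical to 7SL, 7SK, U1, U2, Y or mitochondrial 16S ribosomal RNA found 122 of 9574 members (1.27%), a set chosen after the values were seen. These 122 genes held 19.6% of wild-type RNA reads but 3.86% of footprint reads, their median was −1.18, and 69 of them were low and 3 high. Most of these reads belonged to few genes: 103 of the 122 shared a run with 7SL and held 1.72% of RNA and 0.73% of footprint reads (median −0.99, 51 low), while the 11 that match the 16S RNA held 12.4% of RNA reads and the 3 that match 7SK held 3.44%. The share of low members was 49.5% in the 7SL group and 20.5% over all members. Among members with the longest 3′ UTRs, the last of 5 equal bins, it was 43.0%, with a median of −0.79. Whether the 7SL group differs from members of like 3′ UTR length was not tested. Of the 20 genes with the most RNA reads, 10 were in this set, as were 7 of the 15 members of lowest efficiency and 0 of the 15 of highest. ZNF844, given above, and SLC7A2 are among those 7, each with a run shared with 7SL. The search also covered small cytosolic ribosomal RNAs and mitochondrial tRNAs, among others, and no member had its longest run with one of these. The large cytosolic ribosomal RNAs and cytosolic tRNAs were not searched for. Whether footprints of the highest members, LSM4 included, came from those was not tested. The runs lay in the 3′ UTR of 112 genes and in the 5′ UTR of 10. The middle 30 bases of a run are shown for 1 gene with many RNA reads from each of 4 of these noncoding RNAs. They are in lower case throughout, from GENCODE release 29 transcripts on GRCh38.
PLCG2, shared with 7SK: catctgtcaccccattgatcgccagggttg
ZNF354B, shared with U1: accatgatcacgaaggtggttttcccaggg
TAOK1, shared with U2: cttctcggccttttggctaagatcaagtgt
MTRNR2L8, shared with 16S: gctacctaagaacagctaaaagagcacacc
The stretch of PLCG2 lies at chr16:81961951-81961980 (plus strand, exon 33, 3′ UTR), that of ZNF354B at chr5:178884738-178884767 (plus, exon 5, 3′ UTR), that of TAOK1 at chr17:29543625-29543654 (plus, exon 20, 3′ UTR) and that of MTRNR2L8 at chr11:10508912-10508941 (minus, exon 1, 5′ UTR). PLCG2, a phospholipase of immune receptor signalling, was the most abundant RNA of the library, with 171726 RNA reads (3.09%) and 2362 footprints (−5.60). ZNF354B had 78568 RNA reads and 3318 footprints (−3.98), and the kinase TAOK1 had 25596 and 486 (−5.13). The 11 MTRNR2L genes, which carry copies of the mitochondrial 16S RNA and the humanin reading frame, held 2.90% of footprint reads, with 10 low and a median of −2.98. With the RNA count multiplied by the coding share of the transcript, which is 4.94% at the median of these genes, that median turned to 0.30. They ran from 417 footprints on 42183 RNA reads for MTRNR2L3 (−6.08) to 58706 on 145818 for MTRNR2L12 (−0.73), which had the most footprint reads of all genes. MTRNR2L8 itself had 7083 on 149716 (−3.82). How many of these reads came from the noncoding RNAs was not tested, and the handling of reads that match several places is not stated in the sources.

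All 13 mRNAs encoded in mitochondrial DNA were low. These are translated inside the organelle by its own ribosomes, and code for core subunits of the respiratory chain and ATP synthase. They had 111217 RNA reads (2.0% of the library) and 3123 footprints (0.0826%), with a median of −4.96. MT-ND2 was lowest, with 22 footprints on 3095 RNA reads (−6.52), then MT-ND4 with 103 on 8460 (−5.77). MT-CO1 had 1779 on 56492 (−4.41), and MT-ATP8 was highest with 64 on 426 (−2.14). In the cells labelled IMP1-/- the median was less low, at −2.86, and 12 of the 13 were called low. MT-CO1, for example, had 6113 footprints on 50302 RNA reads there (−2.62).

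The respiratory chain subunits encoded in the nucleus were at the opposite end. Of 76 measured, 44 were high and 1 low, with a median of 1.11, and 73 lay above the median of members. Cytochrome oxidase subunit COX6C had 1679 footprints on 626 RNA reads (2.01), COX6B1 had 1561 on 700 (1.74) and COX7A2 had 1448 on 653 (1.73), and the complex I subunit NDUFB8 had 385 on 157 (1.88). The low one was ATP5G3, which codes for the c-ring of ATP synthase, with 2275 footprints on 7767 RNA reads (−1.19). Of the 77 mitochondrial ribosomal proteins, 29 were high and 0 low (median 0.78), led by MRPL55 with 224 on 65 (2.36), MRPS28 with 234 on 76 (2.20) and MRPL22 with 724 on 238 (2.19).

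Replication-dependent histone mRNAs, which pack newly copied DNA and end in a stem-loop in place of a poly(A) tail, had the highest median of the 36 lists with RNA counts as deposited. With the coding share their median was 0.92, below the nuclear-encoded respiratory chain (1.06) and the SR proteins and hnRNPs (1.03). Of 50 measured, 38 were high, 0 were low, and all 50 lay above the median of members (median 1.48, a density 2.8-fold the typical one). The lowest was HIST1H2AI with 897 footprints on 947 RNA reads (0.51). Among the highest were HIST1H3B with 3897 on 1067 (2.45), HIST1H3J with 306 on 77 (2.57), HIST2H3D with 2491 on 733 (2.35) and HIST1H4K with 3757 on 1170 (2.27). In the cells labelled IMP1-/- 41 were measured and 38 were high (median 1.68). The deposited transcripts of 29 of the 50 hold the coding sequence only, with a median of 1.71, against 1.32 for the 21 with UTRs. Histone copies are nearly identical, so the split of reads among them is uncertain. 3 spellings of the stem-loop were searched for on the sense strand of 3′ UTRs, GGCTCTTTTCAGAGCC, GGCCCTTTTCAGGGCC and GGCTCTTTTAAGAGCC, and 19 members held any of them. Of these, 14 were high and 0 low, with a median of 1.35. All 19 are histone genes, and 15 of them are among the 50 above, so this is largely the same set. An example of each spelling is shown, from a histone that was high, with the stem-loop in capitals.
HIST1H4J: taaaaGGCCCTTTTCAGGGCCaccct
HIST2H3C: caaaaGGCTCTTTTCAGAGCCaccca
HIST3H3: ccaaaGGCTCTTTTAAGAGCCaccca
They lie in exon 1, the 3′ UTR, at chr6:27824454-27824479 (plus strand, 22 bases after the stop codon), chr1:149840687-149840712 (minus, 39 bases) and chr1:228424848-228424873 (minus, 46 bases). The relative efficiencies were 2.11 for HIST1H4J, 2.03 for HIST2H3C and 2.67 for HIST3H3.

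Ribosomal protein mRNAs, in contrast, sat at or a little under the typical density. Many begin with a 5′ terminal oligopyrimidine (TOP) tract, a C followed by pyrimidines at the cap, through which growth signals via mTOR and LARP1 turn their translation up or down together. Of 47 large-subunit mRNAs, 2 were high and 6 low (median −0.07), and of 33 small-subunit mRNAs 1 was high and 5 low (median −0.33). RPL41, which codes for the smallest protein of the ribosome, was far under the others with 646 footprints on 9896 RNA reads (−3.35). That value uses the RNA count as deposited, and its value with the coding share is not given here. RPS27 had 170 on 866 (−1.76), RPS12 had 511 on 2454 (−1.68), RPL12 had 1035 on 4288 (−1.47) and RPLP0 of the stalk had 1942 on 7459 (−1.36). RPL24 was high with 2946 on 1632 (1.44), RPL27 with 2823 on 1842 (1.20) and FAU, which codes for RPS30, with 2747 on 1508 (1.45). In the cells labelled IMP1-/- both medians were above the typical mRNA, at 0.47 and 0.37, so the side of the median on which these lists sat differed between the genotypes, and that difference was not tested. When the RNA count was multiplied by the coding share of the transcript, the large-subunit median became −0.45.

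The other mRNAs listed for a TOP start had 2 high and 3 low of 23, with a median of −0.31 (0.15 in the libraries labelled IMP1-/-, and −0.63 with the coding share). TPT1, which codes for the translationally controlled tumour protein, had 1338 footprints on 13469 RNA reads (−2.75), and PABPC1, the cytoplasmic poly(A)-binding protein, had 603 on 5513 (−2.61). Both kept these low values in the other genotype, at −2.41 and −2.78. The deposited TPT1 transcript carries a 3′ UTR of 3915 bases. EEF1A1, the elongation factor that delivers aminoacyl-tRNA, had 18265 on 54491 (−0.99), and EEF2, which moves the ribosome along the mRNA, had 5631 on 14628 (−0.79, and 0.15 in the other genotype). NPM1 and HSP90AB1, a nucleolar and a cytosolic chaperone, were high with 7946 on 5940 (1.00) and 9293 on 6027 (1.21). The first 20 transcribed bases of the RefSeq entries (GRCh38.p14) are shown for 6 of these mRNAs with a tract and 3 mRNAs without. A tract was counted as a C and at least 4 further pyrimidines. Each set has members above and below the median. In the 6 with a tract, the opening C and the unbroken pyrimidines after it are in capitals.
RPL41: CTCTCggccttagcgccatt
RPS27: CCTTTCCggcggtgacgacc
TPT1: CTTTTCCgcccgctcccccc
EEF1A1: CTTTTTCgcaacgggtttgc
EEF2: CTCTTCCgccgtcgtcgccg
NACA: CTTTCTgccgccatcttggt
RPL3: ctctaccggcgggatttgat
CTNNB1: aagcctctcggtctgtggca
KRT8: attcagcaaatgtttgcgga
They lie at chr12:56116633-56116652 (plus strand), chr1:153990762-153990781 (plus), chr13:45341164-45341183 (minus), chr6:73521013-73521032 (minus), chr19:3985444-3985463 (minus), chr12:56725280-56725299 (minus), chr22:39319604-39319623 (minus), chr3:41199505-41199524 (plus) and chr12:52926450-52926469 (minus), each at the start of exon 1. NACA, a chaperone at the ribosome, had 1870 footprints on 2073 RNA reads (0.44) with a tract. RPL3 had 3443 on 8365 (−0.70), and its opening C and pyrimidines were too short a run to be counted. A start of C and at least 4 further pyrimidines, read on the transcribed strand, was found for 44 of the 65 ribosomal protein mRNAs with a RefSeq entry (67.7%), for 464 of 7859 matched members (5.90%) and for 1104 of all 27305 entries (4.04%). Ribosomal protein mRNAs with this start had a median of −0.29 and those without −0.07. Over all matched members the medians were −0.08 with it and 0.01 without it.

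Among the factors that act on the ribosome, the 42 initiation factors had 8 high and 3 low (median 0.38, or 0.18 with the coding share). These are 19.05% high and 7.14% low, against 14.0% and 20.5% of all members. EIF2B4, a subunit of the exchange factor for eIF2, had 417 footprints on 180 RNA reads (1.79), EIF2S1, the alpha subunit of eIF2, had 917 on 608 (1.18) and EIF3K had 1253 on 808 (1.22). EIF4EBP2, which blocks the cap-binding protein, was low with 191 on 1473 (−2.36), and so was EIF4G2, a scaffold for cap-independent initiation, with 1541 on 5951 (−1.36). The 14 elongation and termination factors centred on the typical mRNA (median 0.03, or 0.51 with the coding share, 1 high and 1 low), and this near-zero median changed sign with a minimum of 200 reads, with a footprint minimum and with other scalings. EEF1G was the low one, with 1405 on 4829 (−1.20).

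The ferritin mRNAs carried few footprints. Their 5′ UTRs hold an iron-responsive element, a hairpin with a CAGTGN loop that iron regulatory proteins grip when iron is scarce, which blocks initiation. FTL, the light chain, had 623 footprints on 6425 RNA reads (−2.78, interval −2.90 to −2.66), and FTH1, the heavy chain, had 4252 on 15615 (−1.29, interval −1.34 to −1.24). Both lay lower in the libraries labelled IMP1-/-, with 197 on 4483 for FTL (−4.09) and 5103 on 58044 for FTH1 (−3.09). The transferrin receptor TFRC, whose elements lie in the 3′ UTR and act on mRNA stability, had 1006 on 894 (0.75). The iron transporter SLC11A2 was high with 114 on 68 (1.32) and the kinase CDC42BPA low with 213 on 779 (−1.28). Over the 8 measured mRNAs of this list 1 was high and 3 low. The median of 0.36 turned to −0.17 with the coding share. A search of 5′ UTRs of at least 20 bases, on the sense strand, for a C, 5 bases, CAGTGN and 5 bases that pair with the 5 before the loop found 7 of 9048 members (0.0774%), among them FTH1 and FTL. The hairpin of FTL is shown, since it was the lower of the ferritin mRNAs, with the loop in capitals.
FTL: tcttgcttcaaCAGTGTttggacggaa
It lies at chr19:48965336-48965362 (plus strand, exon 1, 5′ UTR). Other matches included ADAR (−0.33), PRPF18 (0.37), TMEM198 (−1.50) and ZBTB14 (0.29), so a match of letters did not always go with a low value.

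Of 19 mRNAs with upstream reading frames known from the stress response, 0 were high and 4 low (median −0.06). The share of low members, 21.05%, was near the 20.5% of all members. ATF4, the transcription factor whose reading frame is reached when eIF2 is phosphorylated, had 1483 footprints on 2173 RNA reads (0.03), which is the typical density. ATF5 had 98 on 85 (0.79, and −0.43 in the other genotype), DDIT3, also called CHOP, had 266 on 278 (0.52) and PPP1R15A, which guides the eIF2 phosphatase, had 265 on 307 (0.37). The low ones were CEBPG with 101 on 696 (−2.19), the p53 ligase MDM2 with 117 on 507 (−1.53), the protease BACE1 with 47 on 197 (−1.47) and IBTK with 115 on 434 (−1.33). Polyamine mRNAs, which polyamines themselves control through upstream frames and frameshifting, had 0 high and 2 low of 9 (median −0.45). Their share of low members, 22.2%, was also near that of all members. OAZ1, the antizyme, had 796 on 2818 (−1.24), AMD1 had 264 on 997 (−1.33) and ODC1, the ornithine decarboxylase, had 876 on 1931 (−0.56). Selenoprotein mRNAs, in which a stop codon is read as selenocysteine, had 1 high and 5 low of 16 (31.25% low, median −0.42). SEPN1 had 91 on 431 (−1.65) and SELT 149 on 592 (−1.40), while VIMP had 156 on 59 (1.98).

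Lists for protein quality control and metabolism lay above the typical mRNA, in most with no member low. Of 32 proteasome subunits 23 were high and 0 low (median 1.17), and all 32 lay above the median of members, from PSMD2 with 2388 footprints on 2330 RNA reads (0.62) to PSMD6 with 1003 on 448 (1.75). Of 29 chaperones 17 were high and 0 low (median 1.06), with HSPB1 at 3957 on 1431 (2.05) and the chaperonin subunit CCT5 at 5120 on 2712 (1.5). Of 17 glycolysis enzymes 10 were high and 0 low (median 1.11). Aldolase ALDOA had 10404 on 4678 (1.74), the pyruvate kinase PKM 17885 on 8505 (1.66) and enolase ENO1 14569 on 7302 (1.58). Of 21 aminoacyl-tRNA synthetases 8 were high and 0 low (median 0.86), with TARS at 1775 on 895 (1.57). Folding and translocation proteins of the endoplasmic reticulum had 9 high and 1 low of 33 (median 0.61). HSPA5, the lumenal Hsp70, had 2445 on 1204 (1.61), and SSR3 of the translocon was the low one with 350 on 1340 (−1.35). With the coding share the medians were 0.73 for proteasome subunits, 0.48 for chaperones, 0.58 for glycolysis and 0.23 for the synthetases.

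**Figure D2:**
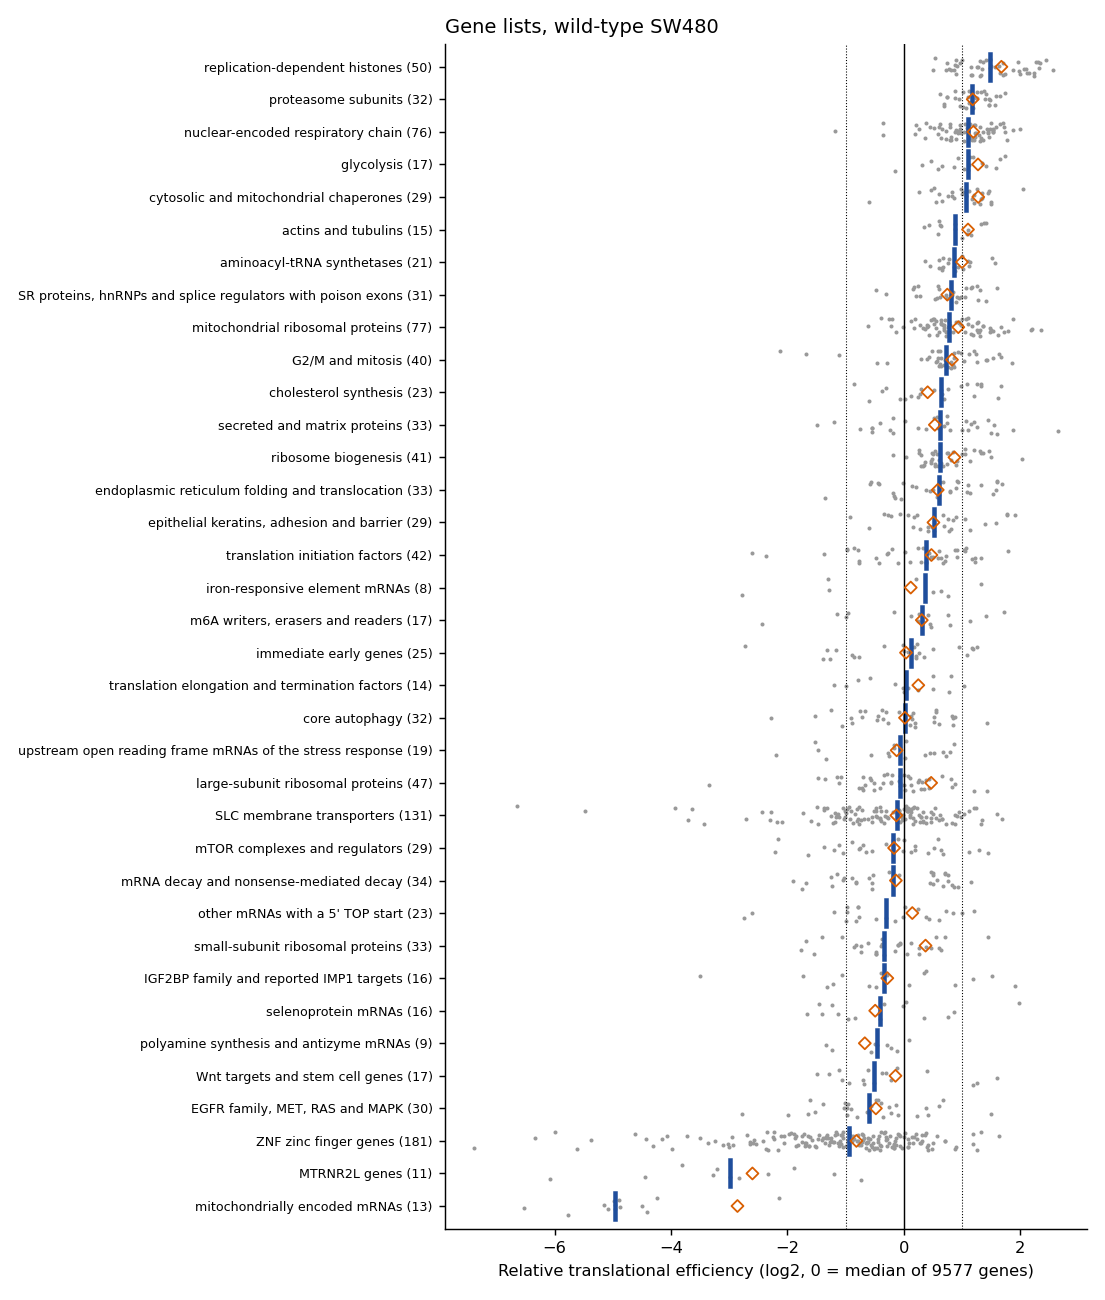
Relative efficiency (log2, 0 is the median of 9577 members) of 36 gene lists, ordered by median, with the number measured in brackets. Grey points are genes, blue bars the wild-type medians, orange diamonds the medians in the libraries labelled IMP1-/-, and dotted lines 2-fold; histones lead at 1.48 and mitochondrially encoded mRNAs close the order at −4.96.

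Among the 29 epithelial genes listed, CTNNB1 and the keratins KRT19, KRT8 and KRT18 had the highest relative efficiency. KRT18 and KRT8, which pair to form filaments, had 52179 footprints on 26170 RNA reads (1.58) and 36727 on 16173 (1.77), and KRT19 had 5230 on 2285 (1.78). CTNNB1, which codes for beta-catenin, the junction protein and Wnt effector, had 8613 on 3411 (1.92, and 1.55 in the libraries labelled IMP1-/-). Of the 29 epithelial genes 7 were high and 0 low (median 0.51), and the junction protein F11R was the lowest with 61 on 174 (−0.92). Of 15 actins and tubulins 7 were high and 0 low (median 0.89, or 0.29 with the coding share). TUBB had 9158 on 5168 (1.41), ACTB 30295 on 24655 (0.88) and ACTG1 9851 on 11559 (0.35). ACTG1 was the lowest of the list.

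Splicing and cell-cycle lists also lay above the typical mRNA. Of 31 SR proteins and hnRNPs, which bind pre-mRNA, 9 were high and 0 low (median 0.82), with HNRNPK at 6721 on 3314 (1.60) and HNRNPA1 at 2176 on 4556 (−0.48, and 0.18 in the other genotype). Of 41 ribosome biogenesis factors 11 were high and 0 low (median 0.63), with the methyltransferase NOP2 at 644 on 340 (1.5). Of 40 G2/M genes 11 were high and 3 low. Their median was 0.74, or 0.17 with the coding share. CCNB1, the mitotic cyclin, had 2268 on 939 (1.86), and FOXM1, a transcription factor of the same phase, had 140 on 917 (−2.12).

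Of 181 ZNF zinc finger genes, most of them DNA-binding repressors, 87 were low and 5 high (median −0.93), with 9 of them in the set that shares runs with noncoding RNAs. ZNF485, which shares a run with 7SL, had 14 footprints on 1069 RNA reads (−5.62). ZNF771 had 12 on 462 (−4.63), while ZNF143, an activator of small nuclear RNA genes, had 135 on 65 (1.63). Of 30 genes of the EGFR, RAS and MAPK pathway 8 were low (26.7%, against 20.5% of all members) and 1 high (3.33%, against 14.0%), with a median of −0.60. The exchange factor SOS1 had 31 on 325 (−2.79) and NRAS 74 on 441 (−1.98). The next 3 lists had shares of low members near the 20.5% of all members. Of 34 mRNA decay factors 8 were low (23.5%) and 1 high (median −0.18), with the deadenylases CNOT6 at 196 on 1099 (−1.90) and CNOT6L at 98 on 475 (−1.69). Of 29 mTOR genes 7 were low (24.1%) and 3 high (median −0.18). The kinase AKT1 had 262 on 1759 (−2.16), LARP1 had 879 on 3009 (−1.19), and the mTOR inhibitor DDIT4 had 3096 on 1885 (1.30). Of 17 Wnt targets and stem cell genes 4 were low (23.5%) and 3 high (median −0.50, or −0.78 with the coding share), with the factors TCF7 at 108 on 394 (−1.28) and LEF1 at 122 on 382 (−1.06), and the secreted Wnt inhibitor DKK4 at 2682 on 1325 (1.60). LEF1 had 0.17 in the other genotype. IMP1 itself, IGF2BP1, had 285 on 598 (−0.48), IGF2BP2 had 482 on 945 (−0.39) and IGF2BP3 had 256 on 300 (0.36). Reported targets of IMP1 and the family gave 3 high (18.75%) and 5 low (31.25%) of 16, with IGF2 at 37 on 637 (−3.50) and CD44 at 837 on 549 (1.19). Their median of −0.34 turned to 0.53 with the coding share.

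The remaining lists were spread around or above the typical mRNA. Of 33 genes for secreted and matrix proteins 12 were high and 2 low (median 0.63), with the protease inhibitor TIMP1 at 1059 footprints on 434 RNA reads (1.87) and the growth factor TGFA at 159 on 669 (−1.49). Of 23 cholesterol synthesis genes 7 were high and 0 low (median 0.65). FDPS, the farnesyl diphosphate synthase, had 821 on 490 (1.33), and SREBF2, the factor that drives genes of the pathway, had 140 on 378 (−0.85) and was not called. Of 17 m6A writers, erasers and readers 3 were high (17.65%, against 14.0% of all members) and 2 low (11.76%, against 20.5%), with a median of 0.32. The methyltransferase METTL3 had 395 on 179 (1.72) and the demethylase ALKBH5 397 on 1317 (−1.15). Against 14.0% high and 20.5% low over all members, 4 of 25 immediate early genes were high (16%) and 5 low (20%). Their median of 0.13 changed sign when both libraries needed 50 reads, to −0.04, and was 0.48 with the coding share. JUNB had 331 on 216 (1.20) and its relative JUND had 97 on 351 (−1.27). Of 32 autophagy genes 1 was high and 4 low (median 0.02, which changed sign under most of the scalings and minimums tried), with GABARAP, a protein of the autophagosome membrane, at 651 on 360 (1.44) and the kinase ULK2 at 9 on 69 (−2.29). Of 131 SLC transporters 8 were high (6.11%) and 31 low (23.7%, near the 20.5% of all members), with a median of −0.12. SLC3A2, the heavy chain of amino acid transporters, had 3785 on 1749 (1.70). The arginine transporter SLC7A2, which shares a run with 7SL, had 37 on 2515 (−5.48).

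Relative efficiency was lower for mRNAs with longer 3′ UTRs when RNA counts were used as deposited. The 9461 members with a coding transcript in the annotation were put in 5 equal bins. The bin with the shortest 3′ UTRs (median 162 bases) had a median of 0.65, with 32.8% high and 7.03% low, and the bin with the longest (median 4093 bases) a median of −0.79, with 3.01% high and 43.0% low. Spearman's rho across genes was −0.45 for 3′ UTR length, −0.44 for transcript length, 0.30 for the coding share of the transcript and 0.01 for RNA level. Which bases of each transcript were counted is not given in the sources used here, and the 3′ UTR enters the ratio if RNA reads were counted along whole transcripts. When the RNA count was multiplied by the coding share, as it would then need to be, the difference between the outer bins of 3′ UTR length changed from −1.44 to 0.19 and that for coding share from 1.03 to −1.16, so neither direction held. Under the same change the difference by coding length grew from −0.49 to −1.55.

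Upstream AUGs went with lower efficiency under either count. The 4318 members without an upstream AUG had a median of 0.22, those with 1 had −0.06, those with 2 had −0.24, with 3 and 4 the medians were −0.31 and −0.22, and the 754 with at least 5 had −0.46. With the coding share the medians were 0.19 for none, −0.08 for 1, −0.18 for 2, −0.30 for 3, −0.36 for 4 and −0.26 for at least 5. In each of the 5 bins of 3′ UTR length, members without an upstream AUG had a higher median than members with at least 2, by 0.38 to 0.52. The GC content of the 5′ UTR had no even slope: the bin around 61.5% GC had a median of 0.27, and the richest, around 79.9%, had −0.50. The length of the 5′ UTR gave 0.18 in the shortest and −0.27 in the longest bin, a difference of −0.45 that was −0.03 with the coding share.

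**Figure D3:**
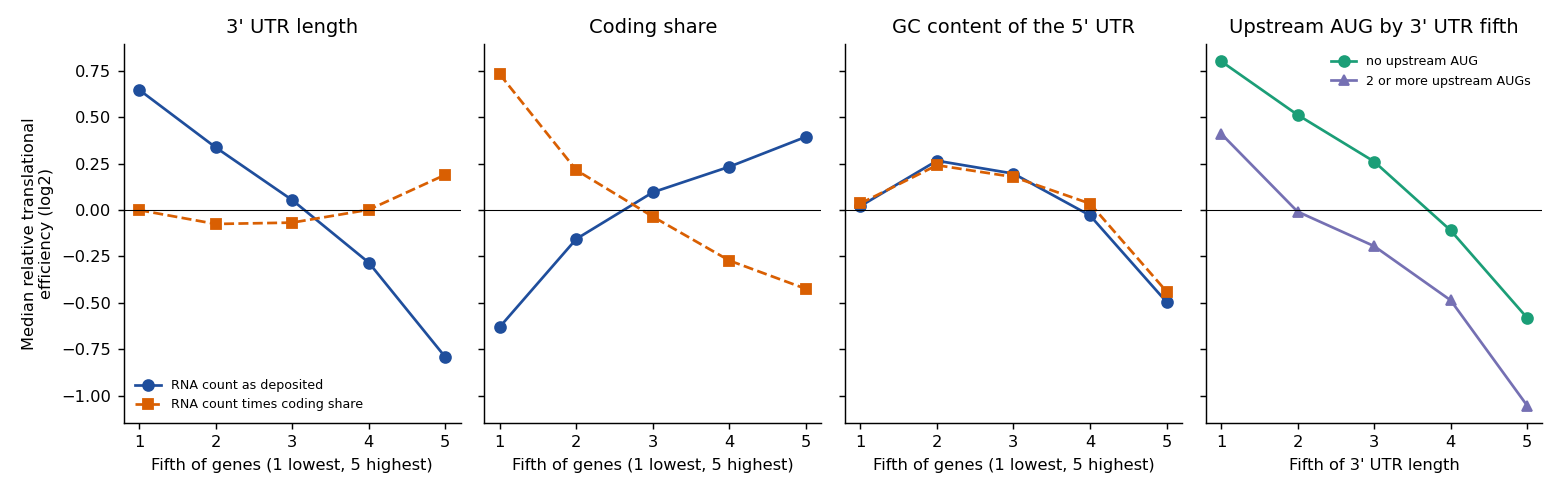
Median relative efficiency (log2) of members in 5 equal bins of 3′ UTR length, coding share and 5′ UTR GC content, with RNA counts as deposited (blue circles) or multiplied by the coding share (orange squares), and in the last panel members with 0 or at least 2 upstream AUGs within each bin of 3′ UTR length. The slopes by 3′ UTR length and coding share turn with the count used, and the upstream AUG lines stay 0.38 to 0.52 apart.

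The bases around the start codon sorted members weakly. A purine 3 bases before the AUG and a G right after it favour its recognition by the scanning ribosome. The 4389 members with both had a median of 0.08, the 3689 with the purine only 0.00, the 662 with the G only −0.24 and the 553 with neither −0.29. The order was the same in the libraries labelled IMP1-/-, at 0.10, 0.02, −0.27 and −0.44. Shown is the start of an abundant mRNA of each class, picked after the values were seen because it departed from the class median. Capitals mark the position of the purine, the AUG and the base after it.
EEF1A1, both: aaagccAaaATGG
KRT8, purine only: gcctctAccATGT
NPM1, G only: cgccacCcgATGG
EIF1, neither: tcgtatCgtATGT
These lie at chr6:73520023-73520035 (minus strand, exon 2), chr12:52904978-52904990 (minus, exon 2), chr5:171387940-171387952 (plus, exon 1) and chr17:41689030-41689042 (plus, exon 1). EEF1A1, with both bases, had −0.99, whereas KRT8 had 1.77, NPM1 1.00 and EIF1, a factor that itself sets the strictness of start selection, 0.68. Abundant mRNAs not shown went both ways. ACTB (0.88) and NSMF (−1.62) have both bases, and RPS2 (−1.41) and RPL31 (0.32) the G only.

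The cells labelled IMP1-/- were used as a second set of libraries, of another genotype and so not a replicate. There, 1493 of 9318 genes were high (16.0%) and 2075 low (22.3%). Over the 8875 genes measured in both, Pearson's r was 0.851 and Spearman's rho 0.841, across genes, and 88.3% lay within 2-fold of each other. Of the 1238 high in wild type, 836 were high in both (67.5%, and 57.1% of the 1463 high in the other). Of the 1787 low in wild type, 1346 were low in both (75.3%, and 69.5% of 1937). The libraries differ in genotype and in the pools of plates they came from, which cannot be told apart.

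**Figure D4:**
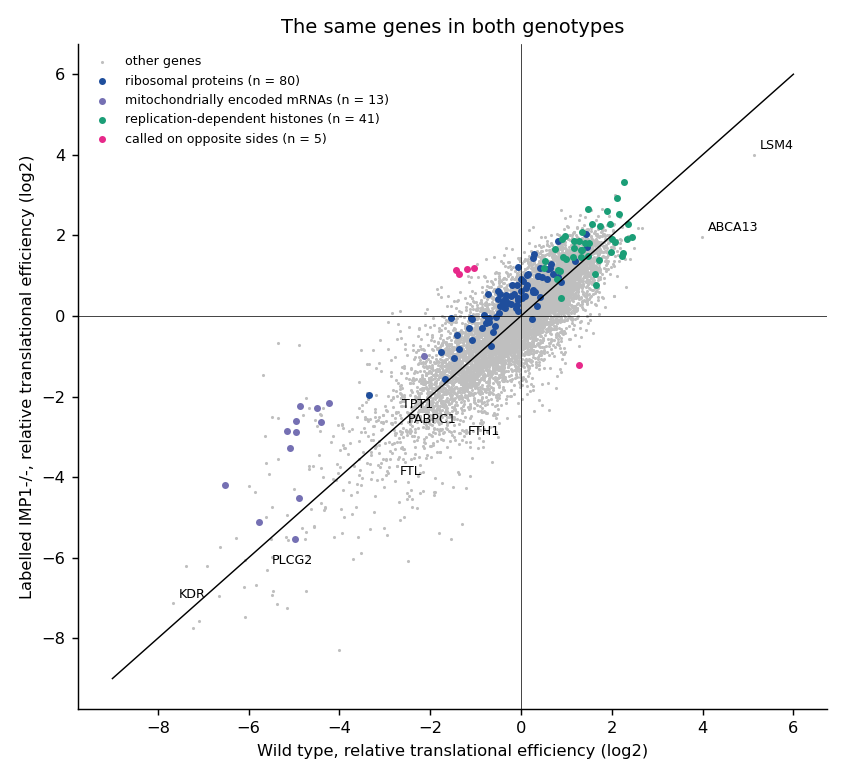
Relative efficiency (log2) in wild type against that in the libraries labelled IMP1-/-, 1 point per gene measured in both with a footprint in each; the diagonal marks equal values. Most mitochondrially encoded mRNAs and most ribosomal proteins lie above the diagonal, FTH1 and FTL below it, and the 5 genes called on opposite sides stand apart from the cloud.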

How the data were processed

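The authors deposited raw read counts per gene, 1 Ensembl transcript per gene, for ribosome-protected fragments and RNA. Per the labels' protocols, size selection kept protected fragments between 18 and 34 nt and RNA pieces up to 50 nt, RiboZero removed ribosomal RNA, and the linkers held random identifiers (4 and 5 nt). Among the tools in the submitters' processing notes are Bowtie 1.1.2, HISAT2 2.1.0 and cutadapt 1.10, with the GRCh38 build. No source states which bases of a transcript were counted, how multimapping reads were treated or whether identifiers were collapsed.

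Groups came from the library titles. Counts plus a prior count of 0.5 were divided by the library totals, and the log2 ratio of footprints to RNA was centred on the median of members. Intervals (95%) used the sum of reciprocal counts. The calling step was tested on simulated data. Features came from GENCODE release 29, which held 99.9% of the transcripts, and transcript starts from RefSeq; 35 list symbols were matched by older names. Python 3.11.15, pandas 2.3.3 and SciPy 1.17.1 were used, with edgeR 4.0.16 for TMM factors only.

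Named genes were the 15 highest and 15 lowest by the interval bound nearest the median, up to 4 per list and side, and a fixed set. Cell type markers were listed separately. Genes shown for a sequence match and ADCY1 fall outside this rule and were chosen after their values were seen. The members and lists were chosen with earlier results of these data known.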

Additional observations from a re-analysis of the deposited data

Results flagged for a closer look

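Of the genes measured in both genotypes, 5 were called on opposite sides of the median of members. AC006486.9 was high in wild type at 1.28, with 83 footprints on 51 RNA reads, and low in the libraries labelled IMP1-/-, at −1.22, with 17 on 54. The other 4 were low in wild type and high there. FOXL2, a transcription factor, had 35 on 120 (−1.18) and 109 on 65 (1.16). KRT10, a keratin of the upper epidermis, had 29 on 118 (−1.42) and 142 on 86 (1.14). MAP7, a microtubule-binding protein, had 44 on 137 (−1.04) and 170 on 99 (1.20). STARD13 had 29 on 113 (−1.36) and 87 on 56 (1.05). With 1 library of each kind the differences were not tested.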

How the results depend on the processing

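The counts of high and low genes depended on the thresholds. They were 751 and 1082 with at least 200 RNA reads (490 and 765 in both genotypes), 763 and 1280 with 50 reads in both libraries, 2700 and 2893 at 1.5-fold (1902 and 2099 in both) and 63 and 656 at 4-fold (16 and 405 in both). With totals that leave out the MTRNR2L and mitochondrially encoded genes 824 were high and 2401 low, a high share of 25.6% of called genes against 40.5%. With TMM factors the median moved by −0.05, with 1186 high and 2069 low. Without the genes that share a run with a noncoding RNA, an alternative chosen after seeing the data, there were 1297 and 1918. With the RNA count multiplied by coding share 1485 and 1808 were called, of which 612 and 1220 were the same genes, and the difference between outer bins was −0.029 for 5′ UTR length, −1.55 for coding length, 0.19 for 3′ UTR length, −0.78 for transcript length, −1.16 for coding share and −0.42 for coding GC content. The same change put the MTRNR2L median at 0.30. Of 216 named genes measured in both genotypes 7 differed in sign, of which ATG4A (0.043 in the libraries labelled IMP1-/-) and LEF1 (0.17) were called in wild type; the others were AZIN1, HNRNPA1, NOP14, ATF5 and EEF2. The causes were not tested, beyond the fewer genes tested at higher minimums. No paired analysis was possible because each group had 1 library, and for the same reason no replicate could be left out. Counting error alone limits a gene at 50 RNA reads to about 0.64 on either side.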

Other observations

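Gene families grouped by the start of their symbols, a grouping made after the values were seen, showed further differences. The ZDHHC palmitoyltransferases, enzymes that attach lipid to membrane proteins, had 11 low and 0 high of 17 members, with a median of −1.22 (−1.08 in the libraries labelled IMP1-/-). RAB GTPases of vesicle traffic had 17 low and 3 high of 50 (median −0.46), ZBTB factors 11 low and 1 high of 29 (−0.53), and TBC genes, many of them GTPase-activating proteins for RABs, 10 low and 0 high of 24 (−0.43, and −1.11 in the other genotype). DDX helicases had 11 high and 0 low of 33 (0.58), nucleoporins named NUP 6 high and 1 low of 21 (0.61), and keratins 12 high and 4 low of 21 (1.11). These counts stand beside 14.0% high and 20.5% low over all members.

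Among the members, 57 have a deposited transcript annotated with the nonsense-mediated decay biotype, and these had 22 high and 4 low, with a median of 0.58. Counts are per gene, and which isoform the reads came from was not tested. Genes with at least 50 footprints but fewer than 50 RNA reads, which the rule leaves out, numbered 245.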
